A study of Mus musculus with 6 samples.

Results

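The comparison described here set transferred, culture-induced CD4 T cells without the Foxp3 reporter (ex-iTreg) against both populations that still carried it, natural (nTreg) and induced (iTreg) regulatory T cells. A gene was counted as set apart when both ex-iTreg arrays lay above, or both below, all 4 other arrays. It also had to pass limma's test of ex-iTreg minus the equally weighted mean of nTreg and iTreg (adjusted p under 0.05), and its ex-iTreg mean had to lie at least 1 log2 unit from the nearer population mean. By this rule 296 of 11019 tested genes were set apart, 111 higher in ex-iTreg cells (1.01% of tested genes) and 185 lower (1.68%). Without the distance of 1 log2 unit, 2519 genes lay above all 4 other arrays (22.9%) and 2622 below them (23.8%), and 1792 and 2072 of these also passed the test. The non-overlap, limma's test and the distance together chose the genes, so meeting these criteria is not independent support for any chosen gene.

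All cells came from Rag1-deficient BALB/c hosts, which make no T or B cells of their own and had been given wild-type nTreg cells together with 500000 wild-type iTreg cells made in culture. At 125 days, the spleen and mesenteric lymph node cells of 14 such mice were sorted and pooled by population. The sorted nTreg cells carried EGFP, the reporter of Foxp3, and lacked Thy1.1, the surface allele that marked the transferred iTreg cells. The sorted iTreg cells carried EGFP and Thy1.1, and the ex-iTreg cells carried Thy1.1 without EGFP. Each population was measured on 2 Affymetrix Mouse430_2 arrays, described as replicate pools; no source says that they came from different mice, so p-values reflect pool-to-pool spread alone, and that spread may be technical. All 3 populations thus shared hosts, organs and time since transfer, and the sorted CD4 cells of the study averaged 98.96 ± 0.14% purity over 120 sorts, per the labels. The comparison has no reporter-negative population of other origin. Because the RNA came from bulk pools, fewer cells of a type and less RNA per cell cannot be told apart.

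Foxp3 is the transcription factor that maintains regulatory T cells, which restrain other T cells. It works in part by repressing cytokine genes such as Il2 and by sustaining the high-affinity IL-2 receptor, so that regulatory cells consume IL-2 that they do not make. Induced regulatory T cells are known to lose Foxp3 more readily than thymus-derived ones, and cells that have lost it can make effector cytokines.

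Values are log2 expression, 1 value per array in the order pool 1, pool 2, and differences are in log2 units ± the standard error from limma. The contrast, in what follows, is ex-iTreg minus the mean of both reporter-positive populations. Group means under 5.48, the median of all values and the level used to filter probe sets, are near background, and no fold is given from them. With 2 arrays against 4, the smallest two-sided p of an exact permutation test is 0.133, and every call rests on limma's spread pooled over genes.

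The arrays of 1 population correlated with r between 0.997 and 0.998 across probe sets, and arrays of different populations with r between 0.983 and 0.991. The 1 probe set of Foxp3 read 3.99 to 4.29 over the 6 arrays, below the filter level in every population, so the array could not check the sort. Of 7 tested CD4 T cell markers 2 were called higher and 2 lower (28.6% each, beside 18% and 21.3% of all genes). The summed level of the 7 markers was 14.67 to 14.77 on the log2 scale in all 6 arrays. Summed levels of some other cell types were lower in ex-iTreg than in both other populations. They were those of B cells (11.66 and 11.68 against 12.54 to 12.56), neutrophils (12.67 and 12.68 against 12.96 to 13.33) and dendritic cells (10.66 and 10.76 against 10.80 to 11.35). Most of the linear B cell sum came from 1 probe set of Ighm (11.13 and 11.06 in ex-iTreg against 12.14 to 12.21). Other probe sets of Ighm did not all fall, so that sum does not measure B cells well. The stromal and endothelial sum was also lower (8.32 and 8.33 against 8.86 to 9.77), but of its 4 tested members 1, Epcam, was called; Kdr, Pecam1 and Sparc were not (-0.06, -0.07 and 0.09). The myeloid sum was highest in iTreg (12.96 and 12.96) and lower in ex-iTreg (12.24 and 12.27) and nTreg arrays (12.09 and 12.14). Poly-A control transcripts averaged 8.81 and 8.94 in ex-iTreg, 10.03 and 10.12 in nTreg and 11.35 and 11.37 in iTreg arrays. The X-linked Xist, itself set apart, read 9.42 and 9.12 in ex-iTreg, 11.87 and 11.87 in iTreg and 13.16 and 13.16 in nTreg arrays. The Y-linked Eif2s3y, Uty and Kdm5d were called higher in ex-iTreg cells, at 1.32 ± 0.06, 1.22 ± 0.06 and 1.06 ± 0.17, and none was set apart. Kdm5d read 7.97 and 7.97 in ex-iTreg, 7.89 and 7.86 in iTreg and 6.30 and 5.61 in nTreg arrays, and ex-iTreg minus iTreg was 0.10 (adjusted p = 0.74). The part of poly-A controls, donor sex and other cell types in the results was not tested.

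**Figure D1:**
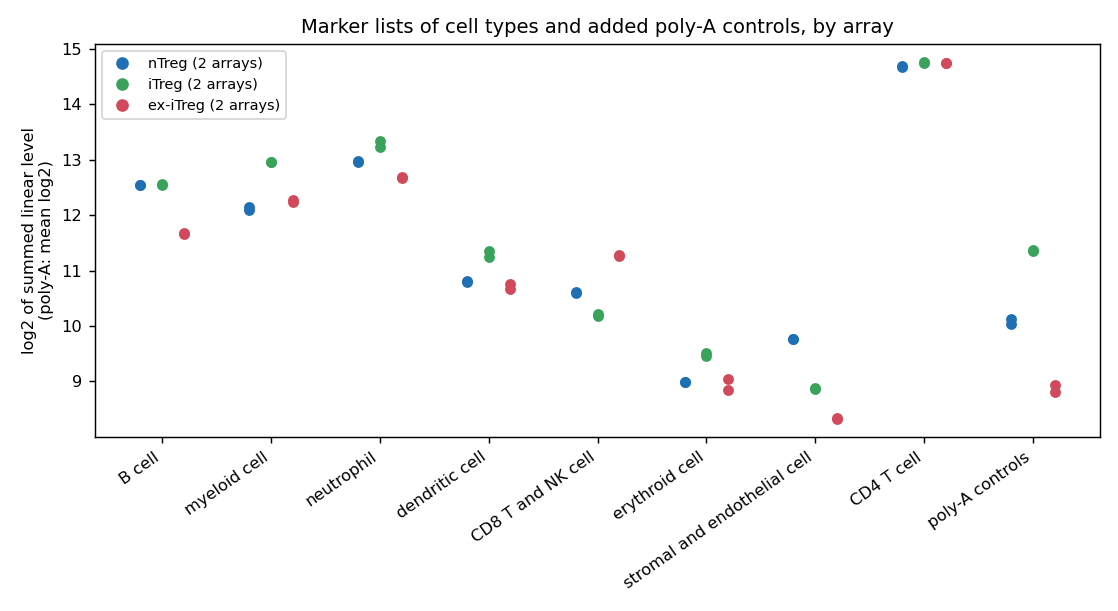
Log2 of the summed linear level of each cell type's tested markers, and mean log2 level of the added poly-A controls, with 1 point per array. The ex-iTreg arrays were lowest for the B cell, neutrophil, dendritic cell and stromal lists and for the poly-A controls (8.81 and 8.94), and highest for CD8 T and NK cell markers (11.27 and 11.28). Most of the B cell sum came from 1 probe set of Ighm.

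Several cytokine genes were set apart above in ex-iTreg cells. Il21, a helper T cell cytokine that acts on B cells and on T cells themselves, stood at 8.80 and 8.91 in ex-iTreg arrays. It read 3.54 and 3.63 in nTreg and 3.96 and 4.19 in iTreg arrays, all near background. The 2 groups were separated by a gap of 4.61, and the contrast was 5.03 ± 0.08 (adjusted p = 1.10e-06). Il21 passed the filter only through the 2 ex-iTreg arrays, where it was high, so these values are no independent support. Il2, the T cell growth factor, read 7.69 and 7.81 in ex-iTreg arrays against 4.36, 4.57, 4.26 and 4.37 in nTreg and iTreg arrays. Its contrast was 3.36 ± 0.08 (adjusted p = 2.73e-06). All 4 reporter-positive values were under the filter level, so iTreg and nTreg cannot be compared for Il2. It too entered the test only through the ex-iTreg arrays, so its contrast is no independent support either. Il17a, which draws neutrophils into tissue, read 9.99 and 9.96 in ex-iTreg, 6.08 and 6.38 in iTreg and 5.45 and 5.38 in nTreg arrays. It was 13.4-fold higher than in iTreg, the nearer population, with a contrast of 4.15 ± 0.09 (adjusted p = 1.74e-06). Ifng, which activates macrophages, read 9.32 and 9.44 in ex-iTreg, 8.08 and 8.05 in iTreg and 7.45 and 7.46 in nTreg arrays. For Il17a and Ifng the iTreg arrays lay between the other 2 populations. Ccl5, a chemokine for T cells, read 12.61 and 12.61 in ex-iTreg against 10.06 to 10.67 in the 4 others, and Ccl4, of the same family, was set apart too (1.19 ± 0.06).

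The start regions shown are those of the 2 genes in each direction that come first by measured distance and have an entry in the promoter table. For Il21, Itgb8 and Tktl1 1 side of that distance is near background, so their order is not resolved. Each runs from 250 bases before to 50 bases after the transcription start in RefSeq for GRCm38.p6, and capitals mark matches to the motifs described after the sequences. Il21 lies on the minus strand at chr3:37232587-37232886, and Il17a on the plus strand at chr1:20730655-20730954. Itgb8, an integrin chain, lies on the minus strand at chr12:119238227-119238526, and Tktl1, a transketolase-like gene, on the plus strand at chrX:74177009-74177308.
Il21: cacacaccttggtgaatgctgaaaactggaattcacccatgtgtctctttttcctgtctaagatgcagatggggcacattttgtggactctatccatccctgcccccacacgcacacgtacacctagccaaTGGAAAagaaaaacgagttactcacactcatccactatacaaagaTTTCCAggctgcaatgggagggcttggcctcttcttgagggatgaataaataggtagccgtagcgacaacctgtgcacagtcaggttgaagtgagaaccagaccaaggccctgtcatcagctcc
Il17a: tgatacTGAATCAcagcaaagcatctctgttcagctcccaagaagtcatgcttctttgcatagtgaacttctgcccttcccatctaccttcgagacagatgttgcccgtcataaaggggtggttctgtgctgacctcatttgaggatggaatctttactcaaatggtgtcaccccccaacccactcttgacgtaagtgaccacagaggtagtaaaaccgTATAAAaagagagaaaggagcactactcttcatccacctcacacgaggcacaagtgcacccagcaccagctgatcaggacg
Itgb8: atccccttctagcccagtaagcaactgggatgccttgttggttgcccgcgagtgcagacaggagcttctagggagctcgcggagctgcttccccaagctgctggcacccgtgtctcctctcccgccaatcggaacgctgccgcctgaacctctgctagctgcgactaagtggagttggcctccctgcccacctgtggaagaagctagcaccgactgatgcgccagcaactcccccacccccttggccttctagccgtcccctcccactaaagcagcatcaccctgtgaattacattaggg
Tktl1: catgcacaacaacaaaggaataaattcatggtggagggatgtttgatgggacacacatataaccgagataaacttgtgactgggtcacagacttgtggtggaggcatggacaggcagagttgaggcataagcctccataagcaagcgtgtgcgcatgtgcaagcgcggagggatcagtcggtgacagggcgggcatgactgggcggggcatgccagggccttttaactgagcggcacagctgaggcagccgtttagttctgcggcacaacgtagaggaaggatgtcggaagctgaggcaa

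Motifs were searched on both strands, and overlapping matches of different motifs were each counted. The Il21 window held 2 NFAT cores, starting at -119 and -74, and the Il17a window 1 AP-1 site at -244 and 1 TATA box at -31; the Itgb8 and Tktl1 windows held none of these letters. Promoter entries matched 84 of the 111 higher and 137 of the 185 lower genes. The forkhead core, GTAAACA, stood in 3.57% of the higher, 5.11% of the lower, 2.50% of 8914 tested genes' and 3.55% of all 27025 promoters. The NFAT core, spelled TGGAAA, stood in 25% of the higher, 18.2% of the lower, 16.1% of tested and 21.5% of all promoters. For the STAT site, TTCNNNGAA, the shares were 4.76%, 9.49%, 6.76% and 8.47% in the same order. For the AP-1 site, TGANTCA, they were 7.14%, 9.49%, 4.84% and 7.93%. The TATA box, spelled TATAAA, stood in 10.7%, 12.4%, 7.10% and 14.2%. A match is a description of letters only, not of a bound site.

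**Figure D2:**
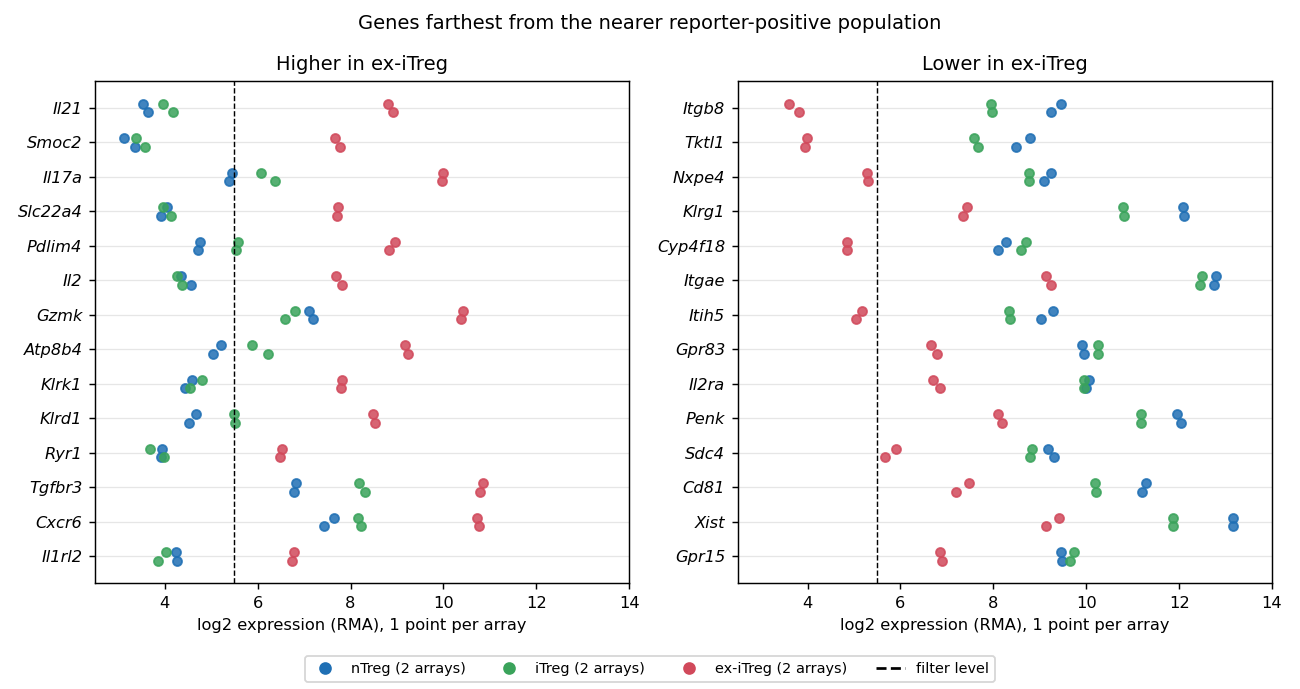
Log2 expression on each array for the 14 genes in each direction with the greatest distance from the nearer reporter-positive population, with the filter level as a dashed line. In every panel row the 2 ex-iTreg points stand apart from the other 4, by the rule that chose the genes. Points left of the dashed line are near background. Where they belong to ex-iTreg or to the nearer population, the gene's place in the order is not resolved.

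Among 15 tested cytokines of helper T cells, 6 were called higher and 6 lower in ex-iTreg cells, where 18% of all tested genes were called higher and 21.3% lower. With nTreg and iTreg arrays as 1 group of 4, a model also used for other lists, calls over all 11019 genes drop to 746 higher and 1017 lower, and list counts in that model are to be read beside these. Their median contrast was 0.01, beside 0.0015 over all genes. Under the stricter filter, which asks for all 6 arrays above the filter level, the median was -0.32 and 2 were called higher, because Il2, Il21, Il17a and Tnfsf14 each read under that level on reporter-positive arrays and left the test. Besides Il2, Il21, Il17a and Ifng, the higher cytokines were Tnfsf8 and Tnfsf14, ligands of the TNF family, at 2.40 ± 0.06 and 2.04 ± 0.06. The lower ones were Csf1, Lta, Ltb, Tnfsf10, Osm and Penk. Penk, the enkephalin precursor, read 8.09 and 8.19 in ex-iTreg, 11.19 and 11.19 in iTreg and 11.95 and 12.04 in nTreg arrays, 8.26-fold under iTreg. Lta, lymphotoxin alpha, read 7.30 and 7.19 in ex-iTreg against 8.65 to 8.77 in the 4 others. Csf1, a macrophage growth factor, read 6.38 and 6.38 in ex-iTreg, 8.67 and 8.62 in nTreg and 9.57 and 9.51 in iTreg arrays; its other probe sets gave -1.74 (adjusted p = 1.55e-05) and -0.23 (adjusted p = 0.0566), so its size depends on the probe set. Il4, Il5, Il13, Il9 and Csf2 had no probe set above the filter; Il4 read 5.25 and 4.94 in ex-iTreg and 3.75 to 4.24 in the other arrays, all near background.

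**Figure D3:**
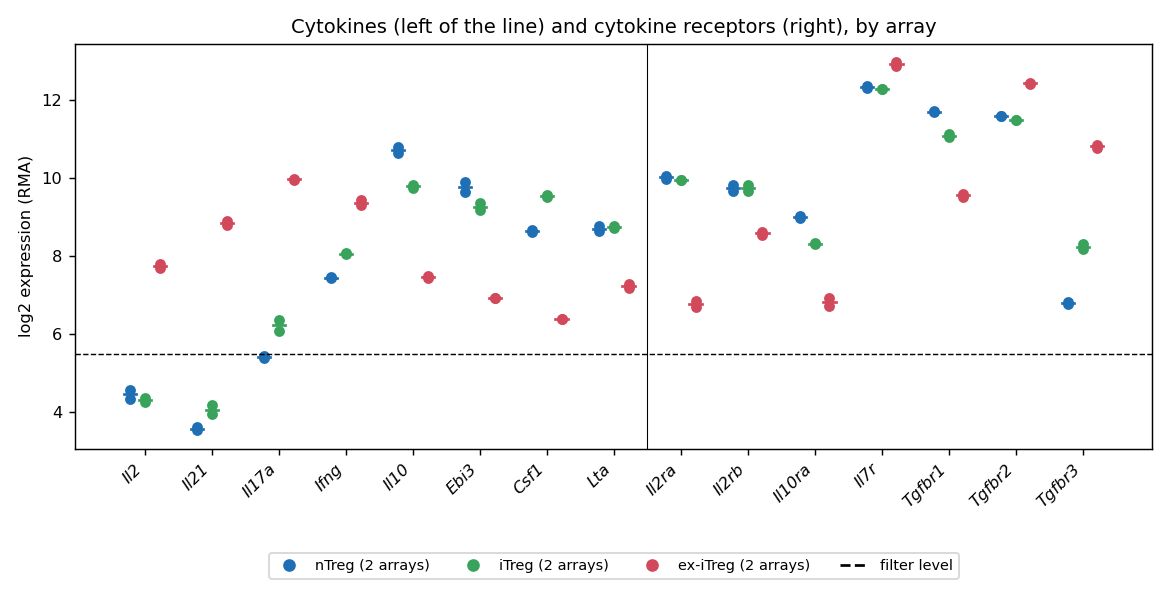
Log2 expression of 8 cytokine genes and 7 cytokine receptor genes, with 1 point per array, a short line at each group mean and the filter level dashed. Il2 rises out of the background only in ex-iTreg arrays (7.69 and 7.81), while Il2ra falls there (6.69 and 6.84 against 9.95 to 10.06); Tgfbr1 is lower and Tgfbr3 higher.

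The receptor side of IL-2 ran the opposite way. Il2ra, the chain that gives the IL-2 receptor its high affinity, read 6.69 and 6.84 in ex-iTreg against 10.06, 9.98, 9.95 and 9.95 in nTreg and iTreg arrays. It was 9.04-fold lower than in iTreg (contrast -3.22 ± 0.07, adjusted p = 1.54e-06), its other probe set gave -2.76, and iTreg and nTreg differed by -0.08 (adjusted p = 0.483). Il2rb, the signalling chain, read 8.64 and 8.55 against 9.66 to 9.82, and the nTreg and iTreg arrays overlapped. Of 18 tested genes of the IL-2 receptor and its STAT5 targets, 11 were called lower (61.1%) and 2 higher (11.1%). The shares of all genes were 21.3% and 18%, and the list median was -0.34. Il2ra and Socs2 are counted again in the Treg core program below. Cish, a feedback inhibitor of cytokine receptors, read 10.35 and 10.39 in ex-iTreg against 11.68 to 12.10, and Socs2, another, read 9.98 and 9.89 against 11.19 to 11.67. The members called higher were Bcl2, a survival factor, and Pim2, a kinase (0.41 ± 0.06 and 0.44 ± 0.06); neither was set apart, and 0 members were called higher with nTreg and iTreg arrays as 1 group. Il7r, the receptor for the survival cytokine IL-7, read 12.87 and 12.97 against 12.29 to 12.36 (0.61 ± 0.06, adjusted p = 0.000489). Its other probe set gave 0.25 (limma adjusted p = 0.0255), and there the ex-iTreg values overlapped those of the other arrays. Il4ra was called lower at -0.30 ± 0.06, but its other probe sets gave 0.10 and -0.15 without a call, and its own call was lost without ex-iTreg pool 1 (adjusted p = 0.0542) or pool 2 (0.0809).

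Genes of the regulatory T cell program were mostly lower. Of 31 tested members of the Treg core program, 28 were called lower in ex-iTreg cells (90.3%, beside 21.3% of all genes) and 0 higher. Among them 23 were set apart, where 1.68% of all genes were set apart below, and the median contrast was -2.02. The 3 members not called were Nt5e, Icos and Bach2, at 0.03 ± 0.07, -0.17 ± 0.06 and 0.16 ± 0.07. Other probe sets of Icos, a costimulatory receptor, gave -0.37 and -0.29 (adjusted p = 0.00282 and 0.0216). Over the alternative settings the count of lower members ran from 25 to 29 and that of higher members from 0 to 1. Of 10 inhibitory receptors 4 were called higher (40%) and 5 lower (50%), beside 18% and 21.3% of all genes, and 0 were set apart. With nTreg and iTreg arrays as 1 group, 2 were called lower. Members chosen for known roles in these cells are no independent evidence of direction, and the Foxp3 sort itself separates the groups.

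Among transcription factors, Ikzf2, which encodes Helios, read 9.53 and 9.48 in ex-iTreg, 11.81 and 11.77 in iTreg and 12.97 and 13.06 in nTreg arrays, a contrast of -2.90 ± 0.06 (adjusted p = 1.47e-06). Its relative Ikzf4, which encodes Eos, followed the same order at 7.38 and 7.33, 9.53 and 9.63, and 10.67 and 10.61. Ikzf3, of the same family, differed in that nTreg and iTreg were alike: 9.31 and 9.39 in ex-iTreg against 10.61 to 10.76. Ikzf1, the founding member, was called higher instead (0.60 ± 0.05, adjusted p = 0.000412). Prdm1, which encodes the repressor Blimp-1, read 6.72 and 6.59 in ex-iTreg against 8.75 to 9.58. Of 41 tested helper lineage transcription factors 16 were called higher (39.0%) and 20 lower (48.8%), beside 18% and 21.3% of all genes. With nTreg and iTreg arrays as 1 group, the counts were 5 and 11. Nfil3 and Zbtb32 were set apart below (-1.76 ± 0.06 and -1.35 ± 0.06), and Irf4 was called lower without reaching the distance (-0.92 ± 0.06).

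Of 13 tested mediators of suppressive function, 11 were called lower (84.6%, beside 21.3% of all genes) and 0 higher. Among them 7 were set apart, and the median was -1.47. Il10, Ebi3, Itgb8, Ctla4, Entpd1, Gzmb and Fgl2 are also lower members of the Treg core program, so these lists are not separate results. Il10 read 7.45 and 7.49 in ex-iTreg, 9.76 and 9.83 in iTreg and 10.81 and 10.65 in nTreg arrays, 5.01-fold under iTreg. Ebi3, which forms part of IL-35 and IL-27, read 6.93 and 6.94 against 9.19 to 9.90. Itgb8, whose integrin activates latent TGF-beta, fell to the background, at 3.59 and 3.81 in ex-iTreg against 7.95 and 7.96 in iTreg and 9.46 and 9.24 in nTreg arrays (-4.96 ± 0.09, adjusted p = 1.30e-06). Ctla4, an inhibitory receptor, was called lower but stayed high, at 12.57 and 12.72 against 13.27 to 13.75. Entpd1, the ectoenzyme CD39, read 5.68 and 5.63 against 7.08 to 7.44, whereas Nt5e, the next enzyme in adenosine production, was not called. The mediators not called were Nt5e and Prf1 (0.13 ± 0.06), which encodes perforin.

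Costimulatory TNF receptors were called lower in 7 of 11 cases (63.6%, beside 21.3% of all genes) and higher in 0. Among them 5 were set apart, and the list median was -1.14. Tnfrsf4, Tnfrsf9 and Tnfrsf18 are counted in the Treg core program too. Tnfrsf9, known as 4-1BB, read 6.37 and 6.52 in ex-iTreg, 8.61 and 8.68 in iTreg and 10.02 and 9.98 in nTreg arrays. Tnfrsf18 and Tnfrsf4, known as GITR and OX40, had contrasts of -1.55 ± 0.05 and -1.55 ± 0.06 and still read 10.63 to 10.87 in ex-iTreg arrays. Cd27 read 9.26 and 9.34 against 10.61 to 10.99. Tnfrsf1a, Tnfrsf25, Tnfrsf14 and Fas were not called (-0.20 to -0.01). Among surface genes outside the lists, the B7 ligands Cd80 and Cd86 were both set apart below, Cd80 from 6.32 to 7.74 down to 4.31 and 4.23, and Cd86 from 7.31 to 7.69 down to 6.20 and 6.23.

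Other genes far below both populations had varied roles. Klrg1, an inhibitory lectin-like receptor, read 7.44 and 7.35 in ex-iTreg, 10.80 and 10.82 in iTreg and 12.09 and 12.10 in nTreg arrays, 10.7-fold under iTreg. Gpr83, an orphan receptor typical of regulatory T cells, read 6.66 and 6.78 against 9.92 to 10.26, with iTreg above nTreg. Cyp4f18, a fatty acid hydroxylase, read 4.85 and 4.85, near background, against 8.09 to 8.70. Cd81, a tetraspanin, read 7.48 and 7.20 against 10.19 to 11.29. Sdc4, a cell-surface proteoglycan, read 5.90 and 5.66 against 8.78 to 9.30. Tktl1, Nxpe4 and Itih5 ended near background in ex-iTreg arrays, with contrasts of -4.17, -3.68 and -3.64. Lgmn and Ctsl, lysosomal proteases, were both set apart (-2.53 ± 0.07 and -2.11 ± 0.08).

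The genes Foxp3 is known to repress ran the other way. Of 12 tested, 11 were called higher (91.7%, beside 18% of all genes) and 0 lower, with 6 set apart and a median of 1.24. Counts under the alternatives ran from 8 to 12 higher, and under the stricter filter, with 9 tested, the median was 0.62. Besides the cytokines these were Pde3b, Themis, Satb1, Il7r, Ptpn22, Id2 and Crtam, and Tnf was not called (-0.16 ± 0.07). Pde3b, a phosphodiesterase that degrades cyclic AMP, read 10.89 and 10.93 in ex-iTreg, 8.44 and 8.38 in iTreg and 6.03 and 6.01 in nTreg arrays. It was the member whose iTreg level lay farthest from nTreg (2.39), and ex-iTreg still exceeded iTreg 5.65-fold. Pde5a and Pde7a, of the same enzyme family, were set apart above as well (2.24 ± 0.10 and 1.81 ± 0.07). Themis, which tunes T cell receptor signals, read 9.35 and 9.34 in ex-iTreg against 6.21 to 7.61, and its 3 other probe sets gave 2.06 to 2.89.

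**Figure D4:**
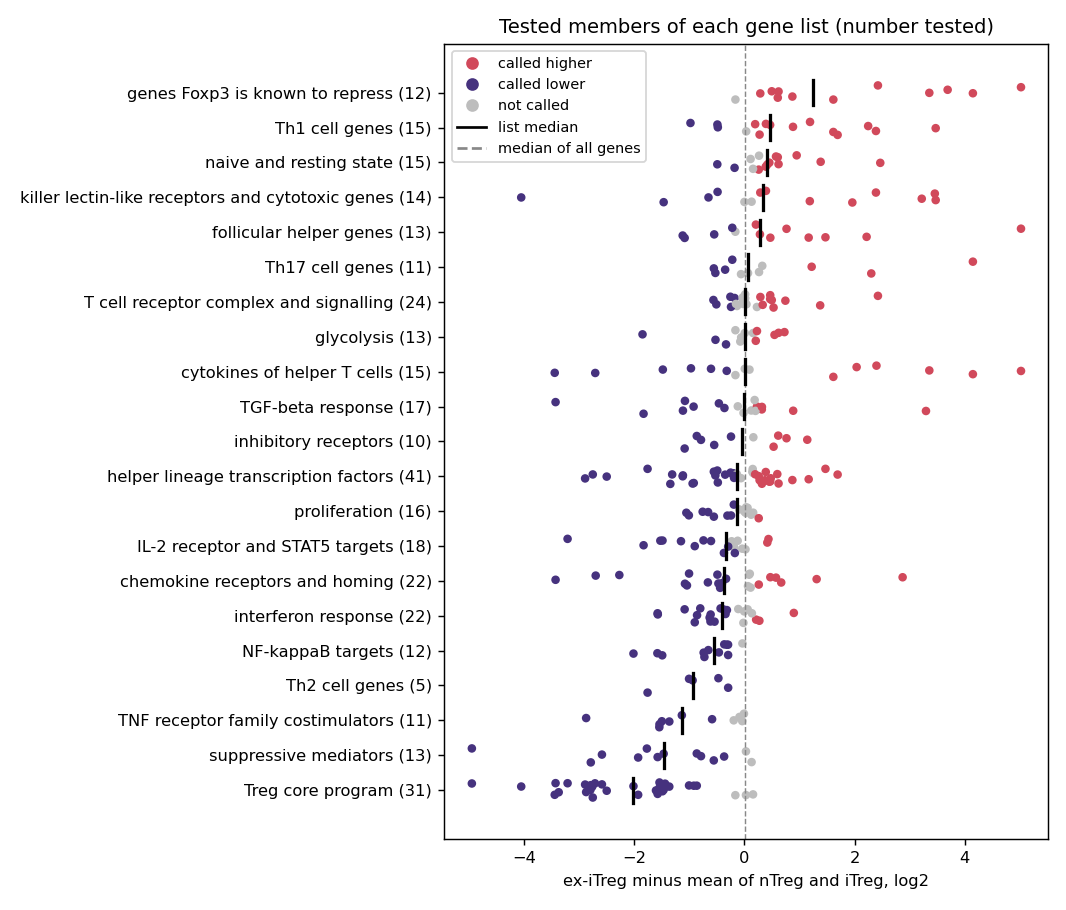
Contrast of every tested member of each gene list, coloured by limma's call, with the list median as a black bar and the median of all genes (0.0015) dashed. Treg core, suppressive and TNF receptor lists lie to the left (medians -2.02, -1.47 and -1.14) and the Foxp3-repressed list to the right (1.24). Cytokines split into both sides. Some genes are members of more than 1 list.

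Helper lineage lists, like all tested genes, were called in both directions, except the Th2 list. Of 15 Th1 cell genes 11 were called higher (73.3%) and 3 lower (20%), beside 18% and 21.3% of all genes. The lower share was thus near that of all genes, and the median was 0.47. Fasl, a death ligand, read 9.76 and 9.56 in ex-iTreg against at most 7.47, and Eomes, a T-box factor, 7.95 and 7.64 against 5.94 to 6.39. Tbx21, the Th1 regulator T-bet, differed by 0.47 ± 0.08 (adjusted p = 0.00539), a call lost without ex-iTreg pool 2 (adjusted p = 0.052). Cxcr3, Il12rb1 and Hopx were the lower Th1 members, or 1 lower call with nTreg and iTreg arrays as 1 group of 4. Of 11 Th17 cell genes only Il17a, Il17re and Il1r1 were called higher, and Ahr, Maf, Batf and Stat3 were called lower. These shares, 27.3% and 36.4%, were not far from the 18% and 21.3% of all genes. With nTreg and iTreg arrays as 1 group, the count of lower calls was 1, and with an intensity trend the count of higher calls was 5. Il17re, the IL-17C receptor, read 9.34 and 9.24 in ex-iTreg against 6.54 to 7.51 (contrast 2.30). Its other probe sets gave 1.38 and 0.47, so its size depends on the probe set. Rora and Ccr6, further Th17 genes, were not called (-0.06 ± 0.05 and 0.06 ± 0.05).

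Of 13 follicular helper genes 8 were called higher (61.5%) and 4 lower (30.8%), beside 18% and 21.3% of all genes. Bcl6, the lineage regulator, read 9.30 and 9.26 in ex-iTreg, 8.47 and 8.48 in nTreg and 7.69 and 7.80 in iTreg arrays, 1.74-fold above nTreg, and its other probe set gave 0.64 (adjusted p = 0.00176). Tox2 read 11.28 and 11.11 against 9.26 to 10.09, and Pou2af1, a coactivator also made by B cells, was near background in the other arrays (4.32 to 5.08) and differed by 2.22 ± 0.12. Cxcr5, the follicle homing receptor, was called higher by 0.47 ± 0.06, while Pdcd1, which encodes PD-1, was called lower only through nTreg: 6.79 and 6.72 in ex-iTreg, 6.95 and 6.91 in iTreg and 8.77 and 8.74 in nTreg arrays. With nTreg and iTreg arrays as 1 group, 0 follicular helper genes were called lower. All 5 tested Th2 cell genes were called lower, 3 with nTreg and iTreg arrays as 1 group, and their median was -0.94. With no filter 9 were tested, 5 were called lower and 1 higher, and the median was -0.30. Ccr8 was lower mainly through nTreg, with means of 6.57 in nTreg, 5.14 in iTreg and 4.84 in ex-iTreg, the last 2 near background. Gata3, the Th2 regulator, read 9.20 and 9.15 in ex-iTreg against 9.88 to 10.30 (-0.94 ± 0.07, adjusted p = 0.000152).

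Genes shared with cytotoxic lymphocytes were called in both directions. Of 14 tested killer lectin-like receptor and cytotoxic genes, 8 were called higher (57.1%) and 4 lower (28.6%), beside 18% and 21.3% of all genes. The lower share was thus not far from that of all genes. The higher count was 5 under the stricter filter, and the lower count 2 with nTreg and iTreg arrays as 1 group. Gzmk, a granule protease, read 10.43 and 10.38 in ex-iTreg against 6.60 to 7.20, 9.49-fold above nTreg. Klrk1 and Klrd1, the activating receptor NKG2D and its neighbour CD94, read 7.83 and 7.80 against 4.43 to 4.80, and 8.49 and 8.54 against 4.52 to 5.52. Nkg7, a granule membrane protein, was higher by 1.19 ± 0.05, while Gzmb, the protease granzyme B, was set apart below (9.15 and 9.09 against 10.51 to 10.65). Klrg1, Gzma and Klrb1f were also called lower. The CD8 T and NK cell marker sum was 11.27 and 11.28 in ex-iTreg against 10.17 to 10.61 in the other arrays, but Cd8a was not called (0.17 ± 0.07) and Cd8b1 was lower (5.18 and 5.35, near background, against 5.94 to 7.18). Ncr1, Klra8 and Klre1, further NK cell markers, had no probe set above the filter.

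Receptors for position in tissue changed in both directions. Of 22 tested chemokine receptor and homing genes, 6 were called higher (27.3%) and 12 lower (54.5%), beside 18% and 21.3% of all genes. With nTreg and iTreg arrays as 1 group, 6 were called lower. Cxcr6, the receptor for Cxcl16, read 10.72 and 10.76 in ex-iTreg, 8.17 and 8.23 in iTreg and 7.64 and 7.43 in nTreg arrays. Gpr183, which guides T cells by oxysterols, read 11.38 and 11.39 against 10.02 to 10.11. Some receptors with a role in gut homing were set apart below. Gpr15, a receptor for entry into the large intestine, read 6.85 and 6.90 against 9.45 to 9.73, Ccr9, a receptor for entry into the small intestine, read 7.50 and 7.66 against 9.13 to 10.63, and Itgae, the integrin CD103, read 9.14 and 9.23 against 12.45 to 12.80. The chains of another gut homing integrin differed in direction, Itga4 being called higher (0.26 ± 0.07) and Itgb7 lower (-0.41 ± 0.05).

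TGF-beta receptors diverged. Tgfbr3, the coreceptor betaglycan, read 10.86 and 10.79 in ex-iTreg, 8.18 and 8.32 in iTreg and 6.82 and 6.77 in nTreg arrays, and was 5.95-fold above iTreg. Tgfbr1, the signalling kinase, ran the other way at 9.53 and 9.60 against 11.06 to 11.72. Tgfbr2, the ligand-binding chain, was called higher (12.42 and 12.44 against 11.49 to 11.60). Of the 17 tested TGF-beta response genes 5 were called higher (29.4%) and 7 lower (41.2%), beside 18% and 21.3% of all genes. The higher count was 2 with nTreg and iTreg arrays as 1 group, and 3 with each gene's probe sets averaged. Smad3 and Pmepa1, a transducer and an induced inhibitor of the pathway, were called lower (-0.36 ± 0.06 and -0.92 ± 0.08), and Smad2 and Smad4 were not called (0.12 ± 0.06 and -0.02 ± 0.06).

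Of 24 tested T cell receptor and signalling genes, 9 were called higher and 5 lower, beside 18% and 21.3% of all genes, with a median of 0.01. The lower count was 2 without either ex-iTreg pool. Themis and Dusp6 were set apart, both higher. Dusp6, a phosphatase of the kinase ERK, read 10.07 and 10.17 against 8.49 to 8.91. Its relative Dusp4 was set apart on the other side, at 9.17 and 9.26 in ex-iTreg, 11.16 and 11.18 in iTreg and 12.62 and 12.61 in nTreg arrays. Cd3e was lower by a small amount (-0.51 ± 0.06), and Cd28 higher (0.47 ± 0.05). Cd3g had a contrast of -0.18 ± 0.06 (adjusted p = 0.0474), a call lost without any of 5 of the 6 arrays, nTreg pool 2 being the exception. Of 15 tested naive and resting state genes, 10 were called higher (66.7%) and 2 lower (13.3%), beside 18% and 21.3% of all genes. However, 0 were set apart, and 2 were called higher with nTreg and iTreg arrays as 1 group. Dapl1, a member called higher (2.47 ± 0.17) without being set apart, read 5.20 and 4.60 in nTreg, 8.13 and 8.37 in iTreg and 8.99 and 9.09 in ex-iTreg arrays.

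NF-kappaB targets were called lower in 11 of 12 cases (91.7%, beside 21.3% of all genes) and higher in 0. Their median was -0.56, and 2 were set apart, Bcl3 and Icam1. With nTreg and iTreg arrays as 1 group, 4 were called lower. Icam1, an adhesion molecule, read 8.31 and 8.38 in ex-iTreg against 9.68 to 9.93, and Bcl3, an atypical inhibitor of the pathway, 7.43 and 7.24 against 8.84 to 8.97. Of 22 interferon response genes 14 were called lower (63.6%) and 3 higher (13.6%), beside 21.3% and 18% of all genes, with a median of -0.41. Irf1, Irf8 and Gbp3 were set apart below (-1.09 ± 0.05, -1.58 ± 0.07 and -1.58 ± 0.05), and the higher ones were Mx1, Oas2 and Ifit3; without either ex-iTreg pool, or with nTreg and iTreg arrays as 1 group, 1 was called higher. Ifitm1 and Ifitm2, neighbouring antiviral genes outside that list, were set apart above (1.98 ± 0.12 and 1.11 ± 0.06). Slc2a3, a glucose transporter, was the 1 glycolysis gene set apart, at 9.93 and 9.97 against 11.53 to 12.08. Of 13 tested glycolysis genes, 5 were called higher and 3 lower, the lower share (23.1%) near the 21.3% of all genes. The higher count was 3 without ex-iTreg pool 1, ex-iTreg pool 2 or iTreg pool 2 and with no filter, and 2 with nTreg and iTreg arrays as 1 group. Of 16 proliferation genes 8 were called lower (50%) and 1 higher (6.25%), beside 21.3% and 18% of all genes, with 0 set apart. With nTreg and iTreg arrays as 1 group, 5 were called lower. Ccnb2 and Birc5, which act in mitosis, had contrasts of -1.06 ± 0.07 and -1.01 ± 0.12.

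Markers of other cells stood among the set-apart genes too. Of 5 tested B cell genes 3 were called lower (60%, beside 21.3% of all genes), namely Cd79b, Ms4a1 and Ighm. With nTreg and iTreg arrays as 1 group, 2 were called lower, as Ms4a1 (-0.90), which was not set apart, lost its call. Cd79b, a B cell receptor chain, read 4.50 and 4.80 in ex-iTreg, near background, against 6.38 and 6.56 in iTreg and 7.79 and 7.52 in nTreg arrays. Ighm read 11.13 and 11.06 against 12.14 to 12.21, but of its 4 other probe sets 1 gave -1.73, 1 was called the other way (0.18, adjusted p = 0.0474) and 2 were not called. The defining B cell genes Cd79a, Pax5, Ebf1 and Blk had no probe set above the filter in any 2 arrays. Epcam, an epithelial adhesion molecule, read 5.04 and 4.90 against 7.11 to 9.25, but its other probe set gave -0.18 (adjusted p = 0.215). All 7 tested neutrophil genes were called lower, with contrasts of -0.78 to -0.32, or 2 of them with nTreg and iTreg arrays as 1 group, and 0 were set apart. Of 17 tested myeloid genes 4 were called lower, near the 21.3% of all genes called lower, or 1 with nTreg and iTreg arrays as 1 group; Csf1r, the macrophage growth factor receptor, had a contrast of -0.11 ± 0.05 (adjusted p = 0.158). Of 7 dendritic cell genes 4 were called lower, or 0 with nTreg and iTreg arrays as 1 group. Of the 7, 2 lay below all 4 other arrays, and the median of ex-iTreg minus nTreg was 0.03. Cd74 and H2-Aa were called lower only through iTreg, with ex-iTreg minus nTreg at 0.03 and 0.12. Of 4 erythroid genes 1 was called lower, a share also near that of all genes. Without any gene of the other cell type lists, a count added after the data were seen, 107 genes were set apart above and 181 below.

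The 2 reporter-positive populations were not alike for many set-apart genes. Across all tested genes, 3206 differed between iTreg and nTreg (29.1%), and among set-apart genes 56 of 111 higher and 124 of 185 lower ones did. The iTreg mean was the nearer to ex-iTreg for 86 of the 111 higher and 150 of the 185 lower genes. That is 79.7% of set-apart genes, beside 56.8% of all 3864 called and non-overlapping genes; the same arrays enter both differences, so this is a description with no test. Gdpd3, a lysophospholipase, was an example on the lower side at 12.58 and 12.62 in nTreg, 8.16 and 8.19 in iTreg and 6.57 and 6.64 in ex-iTreg arrays. Exceptions, where iTreg lay on the far side of nTreg from ex-iTreg, included Gzmk, Tbc1d4 and Ccl5 among higher genes and Csf1, Ctsl and Slc2a3 among lower ones.

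**Figure D5:**
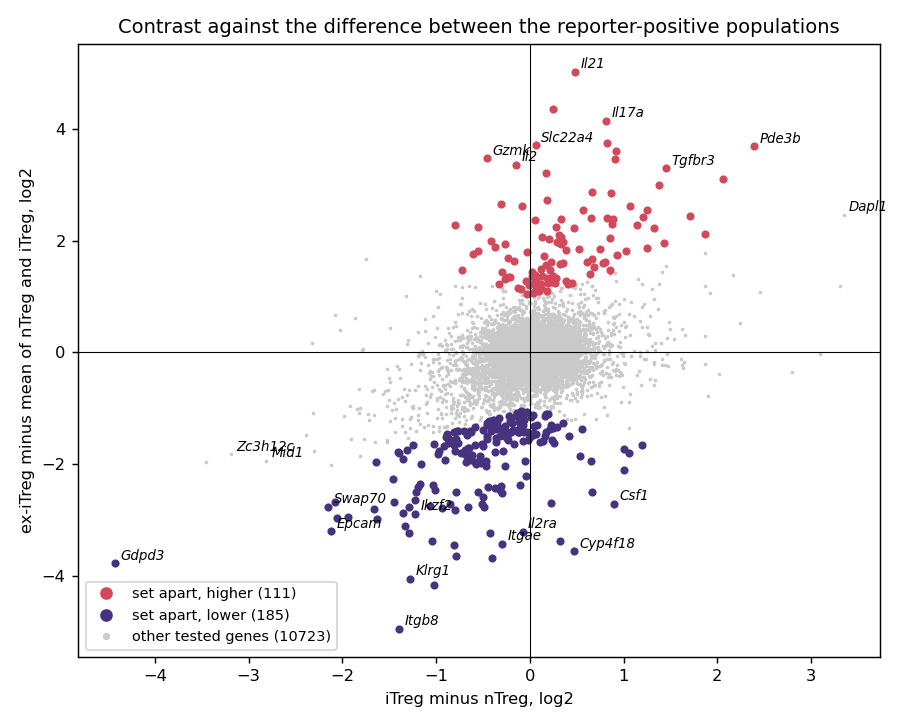
Contrast of each tested gene (vertical axis, log2) against its iTreg minus nTreg difference (horizontal axis, log2), with the 111 higher and 185 lower set-apart genes coloured. Il2, Slc22a4 and Il2ra sit near 0 on the horizontal axis, while Pde3b (2.39) and Gdpd3 lie far from it; Dapl1 has a large contrast but was not set apart.

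Some genes differed little between the reporter-positive populations and lay far from both in ex-iTreg cells. Among genes at least 2 log2 units from both, the smallest differences between iTreg and nTreg on the higher side belonged to Dmrta1, Slc22a4, Ryr1, Nebl, Il2 and Klrk1 (-0.15 to 0.17). For all but Nebl, both reporter-positive means were near background, so a small difference there shows no likeness. Apart from Nebl, these genes passed the filter only through the ex-iTreg arrays, so their separation is no independent support. Slc22a4, a transporter of organic cations, read 7.74 and 7.71 in ex-iTreg against 3.93 to 4.14, and Ryr1, a calcium release channel, 6.53 and 6.48 against 3.68 to 3.99. Nebl, an actin-binding protein, was above background in all arrays, at 9.50 and 9.49 against 7.29 to 7.62. On the lower side they were Cnksr3, Il2ra, Axl, Gpr15, Lgmn and Itgae (-0.30 to 0.22). Axl, a receptor kinase that binds Gas6, read 6.04 and 6.12 in ex-iTreg against 8.39 to 8.58, a 5.00-fold difference. Cnksr3, a scaffold protein, read 6.54 and 6.39 against 8.57 to 8.83.

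A large contrast alone did not make a gene set apart. A further 54 higher and 105 lower genes were called with a contrast of at least 1 log2 unit but lay closer to 1 population. Mid1, a ubiquitin ligase, read 6.89 and 6.84 in ex-iTreg and 7.43 and 7.39 in iTreg arrays, against 10.24 and 10.19 in nTreg. Zc3h12c, an RNA-binding gene, was near background in ex-iTreg and iTreg arrays (3.94 to 4.38) and read 7.59 and 7.23 in nTreg. Just inside the distance stood Ifitm2 and Acpp (1.02 and 1.02) and, on the lower side, Gadd45g (-1.01), and just outside it Rassf8 and Serpina9 (0.998 and 0.997) and Rhoh (-0.999).

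Several set-apart genes were neighbours on the chromosome. Of 287 with a place in the gene table, 14 adjacent pairs were both set apart, and 13 of these went the same way. No rate of such pairs among all tested genes was computed, so these counts do not show clustering. Higher pairs were Il2 and Il21 on chromosome 3, Klrd1 and Klrk1 on chromosome 6, Slc22a4 and Pdlim4 on chromosome 11, Gzmk and Esm1 on chromosome 13, Ifitm2 and Ifitm1 on chromosome 7, and Ostf1 and Nmrk1 on chromosome 19. Lower pairs included Tnfrsf4 and Tnfrsf18 on chromosome 4, Gpr83 and Izumo1r on chromosome 9, and Ikzf4 and Suox on chromosome 10. Plin2 and Dennd4c, on chromosome 4, went opposite ways. Pdlim4, a LIM domain protein, read 8.97 and 8.83 in ex-iTreg, 5.59 and 5.53 in iTreg and 4.75 and 4.72 in nTreg arrays, and Izumo1r, a folate receptor family member of regulatory T cells, 9.16 and 9.03 against 10.49 to 10.63.

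In total 4507 probe sets were called higher and 4686 lower of 23484 tested. The counts were 2424 and 2877 without ex-iTreg pool 1, 2350 and 2887 without ex-iTreg pool 2, and 1651 and 1959 with nTreg and iTreg arrays as 1 group of 4. Of the 296 set-apart genes, 34 higher and 48 lower ones had a group mean under the filter level. The distance uses the nearer population, which reached that level for 91 of the higher genes. For the lower genes the ex-iTreg mean reached it in 137 cases. The distances of the other set-apart genes are not resolved. Of the set-apart genes, 121 had other tested probe sets, 182 in all. Of these 166 were called the same way, 15 were not called and 1, of Ighm, was called the opposite way.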

How the data were processed

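The authors deposited log2 expression. The submitters' processing notes name RMA as the tool that made it; its version is not given in the sources used here. RMA scales all arrays to 1 distribution, so values are relative. Of 45101 probe sets, 64 controls were left out, and 23484 that exceeded 5.48, the median of all values, on at least 2 arrays were tested. A gene near background in both reporter-positive populations could therefore enter the test through the 2 ex-iTreg arrays alone. The 3 populations were fitted together with limma 3.58.1 in R 4.3.3 (lmFit, contrasts, eBayes; 3 residual and 3.37 prior degrees of freedom), with Benjamini-Hochberg adjustment over all tested probe sets. The fit was tested on simulated data with known changes. With 2 arrays a group, the number of arrays limits the precision.

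Probe sets with 1 symbol in the platform annotation were named, and 1 probe set stood for each of 11019 genes. Named genes were the 14 farthest from the nearer population in each direction, up to 4 members of each list by moderated t, 15 genes of known role, and the 6 in each direction with the smallest iTreg minus nTreg difference at 2 log2 units or more from both. Other genes in the text were chosen after their values were seen. The members and the lists (helper, regulatory, signalling and other cell type genes) were chosen with earlier results of these data known. Pool numbers did not pair the arrays: same-numbered deviations correlated at -0.0069, -0.088 and -0.040. The alternatives were other filters, a 2-group model, an intensity trend, a second quantile normalization, a replicate block, gene means, other distances and leaving out each array.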

Additional observations from a re-analysis of the deposited data

Results flagged for a closer look

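Probe sets with no gene symbol in the annotation entered no gene count, and by the same rule 31 of 3256 tested ones were set apart above (0.952%) and 45 below (1.38%). These shares were no higher than the 1.01% and 1.68% of named genes. They are listed only because they lie outside the genes described, and they were not matched to genes.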

How the results depend on the processing

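Counts of called probe sets depended on the model and on the ex-iTreg arrays: the 2-group model gave 1651 higher and 1959 lower, and leaving out 1 array gave 2350 to 4665 higher and 2877 to 4783 lower, the lowest counts being those without an ex-iTreg array. The set-apart counts moved less. They were 119 and 189 with no filter, 76 and 135 with the stricter filter, 110 and 182 in the 2-group model, 107 and 165 with gene means, and 111 to 119 and 177 to 192 without 1 array; 110 of 110 and 182 of 182 genes of the 2-group model were shared with the reported ones. By construction the distance mattered most: without it 1792 and 2072 genes were set apart, and with 2 log2 units 27 and 40. With the pool number as a replicate block, 4078 and 4346 probe sets were called and 111 and 185 genes set apart; the arrays share only a number. Of 1589 values of 124 named genes under 13 alternatives, 1526 kept direction and call, 52 lost the call and 9 gained it. The 2 that changed sign were those of Epor, an erythroid marker, not called in any setting, whose contrast ran from -0.19 to 0.059 without 1 array and was above 0 without nTreg pool 2 (0.036) or ex-iTreg pool 2 (0.059); the cause was not tested. An added count, chosen after seeing the data, asked that the nearer population of a higher gene, or the ex-iTreg mean of a lower gene, reach the filter level and gave 91 and 137.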
